A study of Mus musculus with 2 samples.

Results

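A set of 10 genes of early B cell development and antigen receptor rearrangement was followed in spleen cells of a mouse with sickle cell disease (SCD) and a wild-type control. The genes were taken by symbol from the 26124 genes of the count tables, and every one was found: Vpreb1, Igll1, Vpreb3, Rag1, Rag2, Dntt, Ebf1, Pax5, Cd79a and Il7r. Their unique molecular identifiers (UMIs, counts of captured RNA molecules) were compared in early B cells, plasmacytoid dendritic cells (pDCs) and progenitors. Droplet single-cell RNA sequencing had been performed on 1 spleen suspension per genotype. Both mice were 12 to 16 weeks old and had received no treatment. Erythrocytes had been lysed and dendritic cells (DCs) had been enriched by magnetic bead depletion of the remaining suspension, a procedure that removes mainly B cells and erythropoietic cells, so the cells measured are those that the beads left.

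The SCD mouse was of the Berkeley model, which lacks functional mouse adult globin genes and carries human globin genes with the sickle mutation, on a mixed genetic background. Its labelled genotype was homozygosity for Hbatm1Paz, Hbbtm1Tow and the transgene Tg(HBA-HBBs)41Paz. The wild-type mouse was also homozygous for Hbatm1Paz, but it carried 1 Hbbtm1Tow allele and was hemizygous for the same transgene, and its label gives it as non-sickling. By the labels the control therefore shared the alpha globin deletion and the sickle transgene, and the label wild-type refers to the absence of sickling. Since either genotype was represented by 1 animal, differences between genotypes could not be tested. The 95% intervals in brackets are exact Poisson intervals for summed counts, exact binomial (Clopper-Pearson) intervals for shares and exact conditional intervals for ratios, and all of them cover counting error only.

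B cells arise from progenitors that assemble immunoglobulin genes from V, D and J segments. RAG1 and RAG2 cut the DNA at the segment borders, and terminal transferase, encoded by Dntt, adds nucleotides at the joints of the heavy chain. EBF1 and PAX5 switch on and fix the B cell program, and IL-7 signalling through the IL-7 receptor supports early B cells in mice. A rearranged heavy chain pairs with the surrogate light chain (VpreB and λ5, the product of Igll1) and with CD79A and CD79B to form the pre-B cell receptor, which is replaced once a light chain has been rearranged. In the adult these steps take place mainly in the bone marrow, and the spleen of mice can take up blood formation under anemia.

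Both pairs of members that lie side by side in the genome were read first (mouse build GRCm38, GENCODE gene models). Vpreb1 (ENSMUSG00000059305, chr16:16868403-16870843, minus strand) and Igll1 (ENSMUSG00000075370, chr16:16860671-16863985, minus strand) are 4417 bases apart. Rag2 (ENSMUSG00000032864, chr2:101624718-101632529, plus strand) and Rag1 (ENSMUSG00000061311, chr2:101638282-101649501, minus strand) are 5752 bases apart. The promoter windows of these 4 genes are shown because the neighbours differed between the animals in the same direction. Each window runs from 250 bases before to 50 bases after the RefSeq transcription start (GRCm38.p6), 5′ to 3′ on the strand of the gene, and the capitals mark CAGGTG on either strand, an E-box of the kind bound by E2A proteins, and CCCNNGGG, a motif of the kind bound by EBF1.
Vpreb1: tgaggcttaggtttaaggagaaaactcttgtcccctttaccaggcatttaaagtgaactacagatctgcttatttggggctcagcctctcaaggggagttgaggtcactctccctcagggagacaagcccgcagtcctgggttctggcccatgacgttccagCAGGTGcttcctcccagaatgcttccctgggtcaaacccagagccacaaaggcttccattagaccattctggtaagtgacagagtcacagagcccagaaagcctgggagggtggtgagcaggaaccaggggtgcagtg
Igll1: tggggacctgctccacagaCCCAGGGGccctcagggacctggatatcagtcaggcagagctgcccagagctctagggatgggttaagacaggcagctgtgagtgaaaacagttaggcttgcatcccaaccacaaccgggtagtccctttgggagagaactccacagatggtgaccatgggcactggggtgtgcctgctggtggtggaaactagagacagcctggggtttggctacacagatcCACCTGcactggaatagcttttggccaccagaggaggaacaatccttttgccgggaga
Rag1: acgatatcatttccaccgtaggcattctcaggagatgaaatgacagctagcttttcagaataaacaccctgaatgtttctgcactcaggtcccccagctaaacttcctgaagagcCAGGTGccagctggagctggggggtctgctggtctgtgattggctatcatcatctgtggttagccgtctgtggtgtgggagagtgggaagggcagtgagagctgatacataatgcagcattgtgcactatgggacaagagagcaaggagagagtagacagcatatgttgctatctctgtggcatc
Rag2: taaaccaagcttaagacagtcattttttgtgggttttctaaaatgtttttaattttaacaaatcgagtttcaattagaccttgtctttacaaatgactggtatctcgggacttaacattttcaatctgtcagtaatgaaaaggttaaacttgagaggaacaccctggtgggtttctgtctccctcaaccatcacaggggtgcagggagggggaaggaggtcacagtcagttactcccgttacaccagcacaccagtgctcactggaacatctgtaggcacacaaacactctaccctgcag
The windows lie at chr16:16869206-16869505 for Vpreb1, chr16:16863936-16864235 for Igll1, chr2:101649483-101649782 for Rag1 and chr2:101624462-101624761 for Rag2. The RefSeq start of Vpreb1 is inside the longer GENCODE model of the gene. CAGGTG was found in 4 of the 10 members, namely Vpreb1, Igll1 (reverse strand), Rag1 and Cd79a, and in 20.2% of the 32851 promoter windows of the reference. Its first base was 88 bases before the start in Vpreb1, 8 in Igll1, 135 in Rag1 and 154 in Cd79a. CCCNNGGG was found in Igll1 alone among the members, 231 bases before the start, and in 13.7% of all windows. These are letter matches, and their absence from a window says nothing about binding of a factor.

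The other members are spread over the genome. Vpreb3 (ENSMUSG00000000903) is at chr10:75943057-75949657, Dntt (ENSMUSG00000025014) at chr19:41029275-41059525, Ebf1 (ENSMUSG00000057098) at chr11:44617317-45008091 and Cd79a (ENSMUSG00000003379) at chr7:24897381-24902197, all on the plus strand. Pax5 (ENSMUSG00000014030) is at chr4:44524757-44710487 and Il7r (ENSMUSG00000003882) at chr15:9505788-9530176, both on the minus strand. Exons of Vpreb1 overlap those of Top3b on the opposite strand. Exons of Rag1 and Rag2 overlap those of B230118H07Rik, which shares the strand of Rag1. Exons of Pax5 overlap those of Gm12462 and 5730488B01Rik on the opposite strand, of which only 5730488B01Rik is among the genes counted. Of the 91-base stretches of Vpreb1 transcripts, 8.47% also occur in its near copy Vpreb2, so the division of reads between these 2 genes is uncertain. No 2 members shared such a stretch.

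In all, 10845 wild-type cells with 97880318 UMIs and 13447 SCD cells with 189688217 UMIs were measured, with 4991 and 8596 UMIs in the median cell. After filtering, without an upper limit on genes per cell, 9718 (89.6%) and 11855 (88.2%) cells were kept, and 88 cell barcodes occurred in both libraries. The targeted gene Hbb-bs was at 1765 and 16.3 counts per 1000000 (CPM) over the kept wild-type and SCD cells, in the direction that the labels give. Hba-a1, an alpha globin gene that the labels give as deleted in both animals, was at 926 and 1289 CPM, which goes against that label in both libraries alike, and the source of these UMIs was not tested. Clustering with the 10 members left out gave 47 clusters, of which 10 stayed unnamed. Levels below are UMIs of a gene summed over the cells of a class and expressed as CPM of all UMIs of that class. Differences are log2 ratios of SCD over wild-type after adding 5 CPM to both, and "higher" and "lower" describe these 2 libraries.

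Early B cell-like cells were far more frequent in the SCD spleen suspension. They numbered 21 of 9718 wild-type cells (0.216%, 0.134 to 0.330) and 280 of 11855 SCD cells (2.36%, 2.10 to 2.65), a ratio of shares of 10.9 (7.01 to 17.9). With each cell classed by its own markers (59 and 322 cells) the ratio was 4.47. The class rested on 12 markers other than the members (Cd79b, Vpreb2, Blnk, Lef1 and others), all of which were detected in both libraries, with a summed level of 6844 CPM in wild-type and 6361 CPM in SCD cells. Their cells had similar depth, with 5352 and 4989.5 UMIs in the median cell. The 12 markers of T cells, NK cells and innate lymphoid cells summed to 47.8 CPM in wild-type (3 detected) and 38.0 CPM in SCD (7 detected). Of these, Cd3e, Cd3g, Trbc1, Ncr1 and Gzma were at 0 in both libraries. The T cell genes Cd3d, Trbc2 and Cd8a had UMIs in SCD, as did Lck, Gata3, Nkg7 and Klrb1c. Markers of neutrophils summed to 4124 CPM in wild-type and 5542 CPM in SCD early B cells, with 10 and 13 of 13 genes detected. Whether this signal has a part in the differences below was not tested.

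When all kept cells were summed, most members were higher in the SCD library. The log2 ratio was at least 1 for 5 members (2.24% of the 3523 genes tested) and at most -1 for 1 member (11.5%). Vpreb1 was at 4.63 CPM (4.17 to 5.13) in wild-type and 33.4 CPM (32.6 to 34.3) in SCD cells, which is 7.22 times as high (6.50 to 8.05). Ebf1 was at 10.8 and 55.0 CPM, a ratio of 5.11 (4.76 to 5.49). Il7r, the 1 member at -1 or below, was at 59.5 and 20.9 CPM, a ratio of 0.352 (0.337 to 0.367). Dntt was also lower, with a ratio of 0.839 (0.794 to 0.886). In such sums a change in the number of cells and a change in the RNA per cell cannot be told apart, and the classes are therefore described one by one.

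The members differed in where their UMIs were found. In the SCD library early B cells held between 81.9% (Rag2) and 86.2% (Vpreb1) of the UMIs of the 8 members other than Dntt and Il7r. In the wild-type library this share ran from 43.0% for Rag1 and 55.0% for Cd79a to 98.5% for Igll1. Dntt and Il7r were genes of several classes. Of the UMIs of Dntt, 9.39% (wild-type) and 38.0% (SCD) came from early B cells, while pDCs held 65.9% and 23.2%. For Il7r early B cells held 1.95% and 24.6%, and pDCs 62.9% and 45.7%. The plot of member levels by class shows that Vpreb1, Igll1, Vpreb3, Ebf1, Pax5 and Cd79a stood highest in early B cells in both libraries, while Dntt and Il7r also reached over 100 CPM in pDCs.

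**Figure D1:**
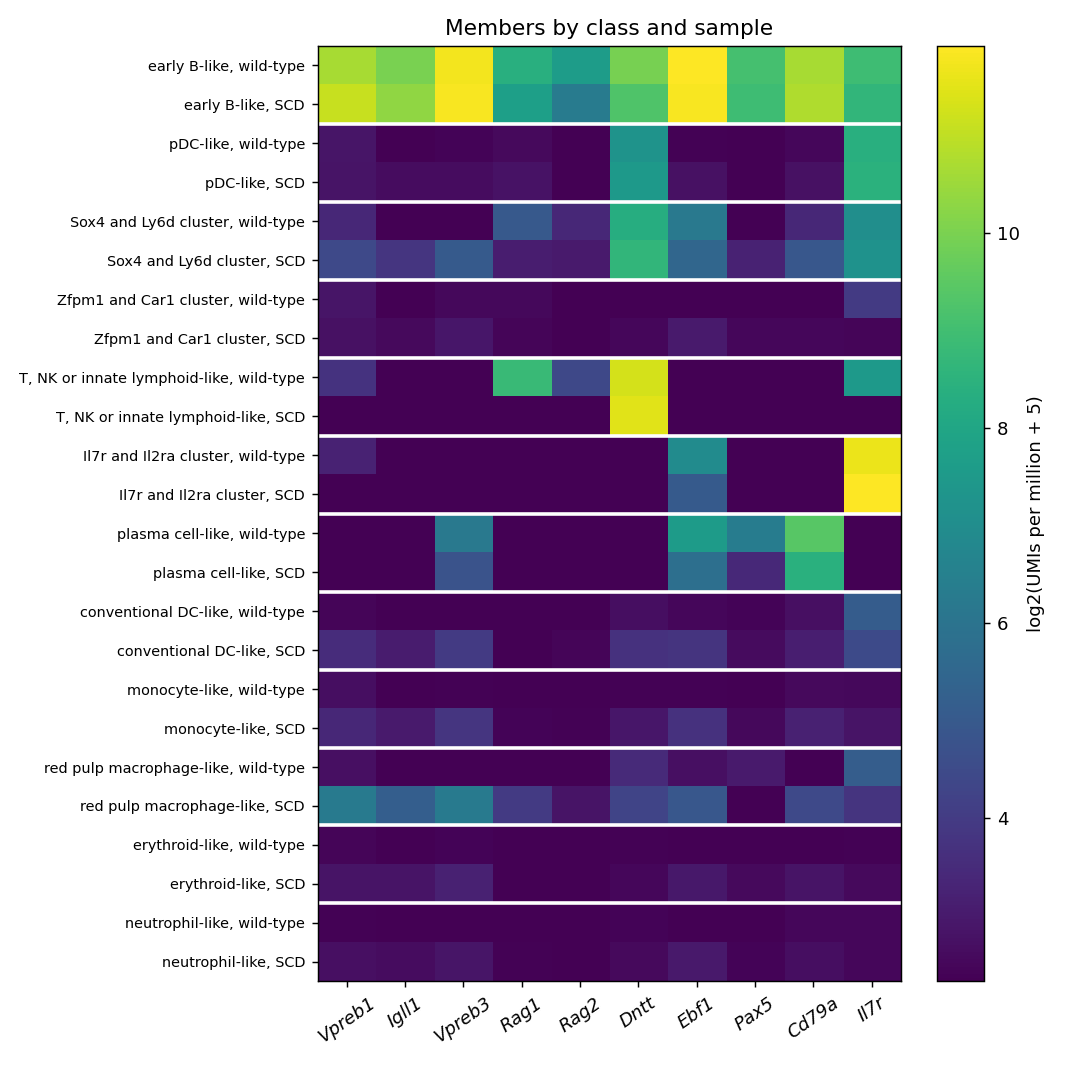
Level of each member (CPM of all UMIs of a class, log scale) by cell class and genotype. Early B cells led for Vpreb1, Igll1, Vpreb3, Ebf1, Pax5 and Cd79a in both libraries, and Dntt and Il7r were also measured in pDCs.

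Within early B cells 5 members differed by no more than counting error between the animals, the surrogate light chain genes Vpreb1 and Igll1 were somewhat higher in SCD, and Rag1, Rag2 and Dntt were lower, for Rag1 and Dntt not beyond counting error once 1 wild-type cell was left out. The median log2 ratio over the 10 members was -0.13, and over the 3327 genes tested in the class it was -0.003. All 10 members passed the minimum of 50 CPM and 20 UMIs in at least 1 library. A log2 ratio of at least 1 was found for 0 members and for 3.31% of all genes, and one of at most -1 for 1 member (Rag2) and for 0.932% of all genes. The counting interval of the ratio lay above 1 for 2 members (7.97% of all genes) and below 1 for 3 members (8.93%). All of these values rest on 188186 UMIs of 21 wild-type cells and 2236930 UMIs of 280 SCD cells.

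The surrogate light chain genes encode the stand-in for the light chain in the pre-B cell receptor. Vpreb1 had 306 UMIs in wild-type and 4956 in SCD early B cells, or 1626 CPM (1449 to 1819) against 2216 CPM (2154 to 2278), a ratio of 1.36 (1.21 to 1.53) and a log2 ratio of 0.45. Igll1, its partner, had 192 and 2878 UMIs, or 1020 CPM (881 to 1175) and 1287 CPM (1240 to 1334), a ratio of 1.26 (1.09 to 1.47). The intervals of the levels did not overlap between the animals for either gene. With each sample clustered on its own, which left 13 wild-type cells, the log2 ratio of Vpreb1 was 0.05 and that of Igll1 turned to -0.29. Vpreb3, which encodes a VpreB-like chaperone of B cells, had 651 and 8181 UMIs, or 3459 and 3657 CPM, a ratio of 1.06 (0.976 to 1.15) whose interval includes 1. Over the alternative settings its log2 ratio ranged from -0.62 to 0.42.

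Vpreb1 and Igll1 were detected in the same cells. In SCD early B cells 192 of 280 cells had a UMI of both, 74 of neither, 7 of Vpreb1 alone and 7 of Igll1 alone. In the wild-type library 15 of 21 cells had both, 5 neither and 1 Vpreb1 alone. The median cell held 7 wild-type and 13.5 SCD UMIs of Vpreb1, and the highest 68 and 71. Vpreb1 made up 61.4% (57.0 to 65.7) of the UMIs of the pair in wild-type and 63.3% (62.2 to 64.3) in SCD early B cells, and these intervals overlap.

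The recombination genes pointed the other way. Rag1 had 61 UMIs in wild-type and 463 in SCD early B cells, or 324 CPM (248 to 416) against 207 CPM (189 to 227), a ratio of 0.639 (0.488 to 0.848). Rag2, the second subunit of the recombinase, had 36 and 167 UMIs, or 191 CPM (134 to 265) against 74.7 CPM (63.8 to 86.9), a ratio of 0.390 (0.271 to 0.576) and a log2 ratio of -1.30. The levels of both subunits were thus lower in the SCD library by more than the counting error, and Rag2 was the lowest of the members by log2 ratio. Dntt, which is active in early B cells during heavy chain joining, had 187 and 1373 UMIs, or 994 CPM (856 to 1147) against 614 CPM (582 to 647), a ratio of 0.618 (0.530 to 0.724). The wild-type count of Dntt was uneven over the cells, since 1 of the 21 cells held 74 of its UMIs and 9 cells held any. Without that cell Dntt was at 672 CPM in wild-type and the ratio was 0.913 (0.753 to 1.12), which includes 1. The same for the cell with most UMIs of Rag1 (12) gave a ratio of 0.762 (0.567 to 1.04), and of Rag2 (8) one of 0.480 (0.320 to 0.744), which still lies below 1. Over the 13 alternative settings with a value, the log2 ratio ranged from -2.02 to -0.32 for Rag1, from -1.87 to -0.93 for Rag2 and from -0.71 to -0.33 for Dntt.

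The 2 subunits of the recombinase were also read cell by cell. Both had a UMI in 12 of 21 wild-type and in 72 of 280 SCD early B cells, and neither in 3 and 83. The median cell held 2 wild-type and 1 SCD UMI of Rag1, and 1 and 0 of Rag2. Rag1 made up 62.9% (52.5 to 72.5) of the UMIs of the pair in wild-type and 73.5% (69.9 to 76.9) in SCD early B cells, and these intervals overlap.

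**Figure D2:**
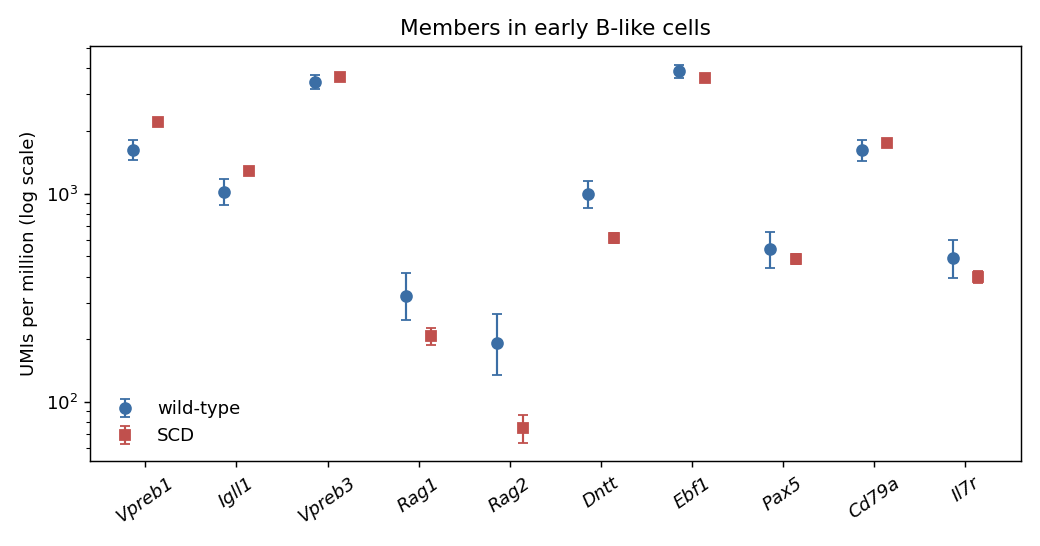
Level of the 10 members in early B cell-like cells (CPM, log axis) in the wild-type library (21 cells) and the SCD library (280 cells), with exact Poisson 95% intervals. Vpreb1 and Igll1 are higher and Rag1, Rag2 and Dntt lower in SCD with intervals that do not overlap, and the other 5 members lie close together.

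The 2 transcription factors differed by no more than the counting error in these classes, but their values depended on how the class was formed. Ebf1, which opens the B cell program, had 729 and 8078 UMIs, or 3874 CPM (3598 to 4166) in wild-type and 3611 CPM (3533 to 3691) in SCD, a ratio of 0.932 (0.864 to 1.01). Pax5, which holds cells in the B lineage, had 102 and 1088 UMIs, or 542 CPM (442 to 658) and 486 CPM (458 to 516), a ratio of 0.897 (0.732 to 1.11). Over the alternative settings the log2 ratio ranged from -0.93 to 0.24 for Ebf1 and from -0.97 to 0.19 for Pax5, with both lowest when each sample was clustered on its own. Both intervals of the ratio above include 1, and Ebf1 had a UMI in all 21 and all 280 cells. Among the receptor genes, Cd79a, the signalling chain of the B cell receptor, had 304 and 3938 UMIs, or 1615 CPM (1439 to 1808) and 1760 CPM (1706 to 1816), a ratio of 1.09 (0.970 to 1.23), with log2 ratios of -0.44 to 0.45 over the alternative settings. Il7r, which encodes the alpha chain of the IL-7 receptor, had 92 and 887 UMIs, or 489 CPM (394 to 600) and 397 CPM (371 to 424), a ratio of 0.811 (0.654 to 1.02), with log2 ratios of -0.30 to 0.06 over those settings.

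The early B cells fell into 3 clusters, which are called by genes other than the members that stood out in them. The Arpp21 cluster held 4 wild-type (19.0%, 5.45 to 41.9) and 78 SCD cells (27.9%, 22.7 to 33.5) and few UMIs of the proliferation gene Mki67 (38.5 and 21.5 CPM). The Mki67 cluster held 7 (33.3%) and 86 (30.7%) cells with Mki67 at 1532 and 1499 CPM. The Igkc cluster, with the kappa light chain gene Igkc at 3064 and 2758 CPM, held 47.6% and 41.4% of early B cells (10 cells in wild-type) and was the largest in both libraries. For each cluster the counting intervals of its shares in wild-type and SCD early B cells overlapped, and 21 wild-type cells give these shares little precision. Since the clusters were formed from genes that vary with the members, differences between clusters are given as a description.

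Among the clusters of the SCD library, recombination and surrogate light chain genes were highest in the Arpp21 cluster. In the wild-type Arpp21 cluster Rag1 (1041 CPM), Rag2 (540 CPM) and Dntt (2544 CPM) were higher still. In SCD cells Dntt was at 1855 CPM in the Arpp21, 437 CPM in the Mki67 and 177 CPM in the Igkc cluster. Vpreb1 was at 6843, 1284 and 1316 CPM, and Igll1 at 3548, 851 and 794 CPM. Rag1 was lowest in the proliferating cells, with 669, 54.5 and 276 CPM, and Rag2 likewise with 188, 42.7 and 76.8 CPM. In the Arpp21 cluster of the SCD library 77 of 78 cells had UMIs of both Vpreb1 and Igll1, while in the Igkc cluster 48 cells had both and 62 neither. Il7r differed less over the clusters, with 374, 341 and 561 CPM, and Pax5 was at 508, 444 and 583 CPM.

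Rag2 was lower in SCD in each of the 3 clusters. Its ratio was 0.349 (0.195 to 0.670) in the Arpp21 cluster with 14 and 70 UMIs, 0.444 (0.236 to 0.909) in the Mki67 cluster with 12 and 58, and 0.288 (0.141 to 0.648) in the Igkc cluster with 10 and 39. Without the wild-type cell with most UMIs of Rag2, these ratios were 0.555 (0.243 to 1.56), 0.894 (0.362 to 2.86) and 0.334 (0.154 to 0.826), so the intervals of the Arpp21 and Mki67 clusters then include 1. Rag1 had ratios of 0.643 (0.432 to 0.996), 0.850 (0.410 to 2.04) and 0.398 (0.261 to 0.631), the second of which includes 1. Without the wild-type cell with most UMIs of Rag1 they were 0.808 (0.480 to 1.47), 2.85 (from 2 and 74 UMIs, with an interval that includes 1) and 0.460 (0.287 to 0.777), so only the Igkc cluster then kept an interval below 1 for Rag1. Dntt was at 2544 against 1855 CPM in the Arpp21 cluster (ratio 0.729, 0.566 to 0.953), or a ratio of 0.874 (0.648 to 1.21) without the wild-type cell that held 20 of its 66 UMIs. It was lower in the Mki67 cluster at 954 against 437 CPM (0.458, 0.375 to 0.562), where 1 of the 7 wild-type cells held 74 of 119 UMIs. Without that cell the ratio in the Mki67 cluster was 1.02 (0.749 to 1.41). In the Igkc cluster Dntt had only 2 wild-type UMIs against 90 in SCD (53.3 and 177 CPM), a ratio of 3.33 (0.895 to 27.9) that includes 1. The number of members with a log2 ratio of at most -1 was 1 in the Arpp21 cluster (9.37% of all genes), 2 in the Mki67 cluster (1.41%) and 2 in the Igkc cluster (8.05%). Without the wild-type cell with most UMIs of the gene, those of the Arpp21 and Mki67 clusters (Rag2 and Dntt) no longer reached -1, and those of the Igkc cluster (Rag1 and Rag2) still did. Those with at least 1 were 0 (21.2%), 0 (5.77%) and 1 (18.9%), the last being Dntt.

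The ratios of the surrogate light chain genes were also read in each cluster, and differences between the clusters were not tested. In the Arpp21 cluster the ratio was 1.68 (1.38 to 2.05) for Vpreb1, 1.30 (1.02 to 1.67) for Igll1 and 1.78 (1.47 to 2.18) for Vpreb3, from 4 wild-type cells. In the Mki67 cluster these ratios were 1.07 (0.908 to 1.28), 1.22 (0.980 to 1.53) and 0.929 (0.824 to 1.05). There 1 of the 7 wild-type cells held 68 of 149 UMIs of Vpreb1 and 47 of 87 of Igll1, and without it the ratios of these genes were 1.58 (1.26 to 2.00) and 2.12 (1.55 to 2.98). In the Igkc cluster they were 0.968 (0.728 to 1.31), 0.876 (0.617 to 1.28) and 0.733 (0.643 to 0.838), so Vpreb3 was higher in SCD in the first and lower in the last. Cd79a was at 1889 CPM in wild-type and 3148 CPM in SCD cells of the Arpp21 cluster. Without the wild-type cell with most of its UMIs the ratio was 2.01 (1.43 to 2.91). Il7r was at 473 and 341 CPM in the Mki67 cluster, and without such a cell its ratio was 0.784 (0.577 to 1.09), which includes 1. Ebf1 (0.690, 0.608 to 0.784) and Pax5 (0.509, 0.369 to 0.718) were, like Vpreb3, lower in the Igkc cluster of the SCD library. There Mki67 was at 0 UMIs in the 10 wild-type cells and at 425 CPM in SCD, and the neutrophil gene S100a8 at 480 and 2058 CPM. In the Arpp21 cluster S100a8 was at 578 and 2352 CPM, and in the Mki67 cluster it went the other way at 2470 and 1768 CPM. The part of these genes in the differences was not tested.

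**Figure D3:**
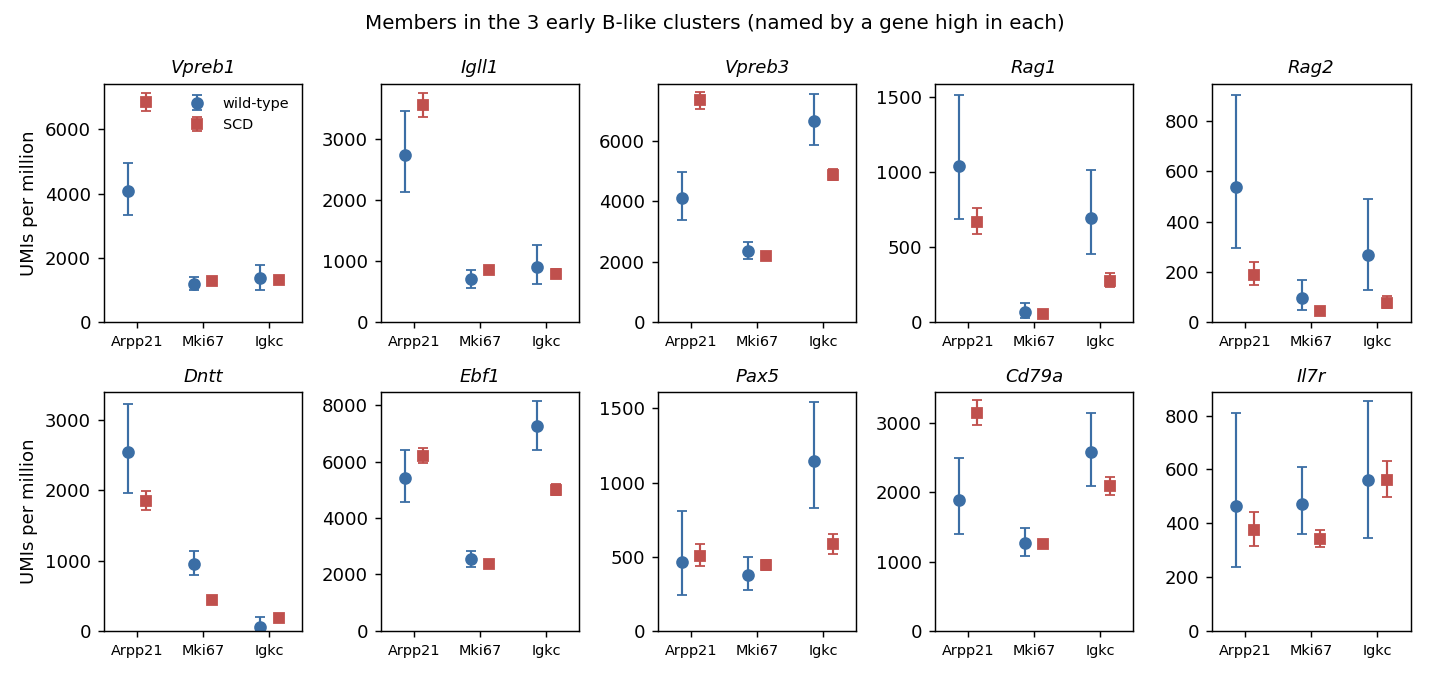
Level of each member (CPM) in the Arpp21, Mki67 and Igkc clusters of early B cell-like cells, by genotype, with exact Poisson 95% intervals. Each panel has its own axis from 0. Rag1, Rag2, Dntt, Vpreb1 and Igll1 are high in the Arpp21 cluster, and the SCD value of Rag2 is lower in all 3 clusters.

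To compare shares of cells at equal depth, every cell was thinned to 1000 UMIs, which left out 0 wild-type and 1 SCD early B cell. Rag1 was then detected in 42.9% (21.8 to 66.0) of wild-type and 22.9% (18.1 to 28.3) of SCD early B cells, and without thinning in 15 of 21 and 162 of 280. Rag2 was detected in 9.52% (1.17 to 30.4) and 10.0% (6.77 to 14.2) at this depth. At 2000 UMIs, which left out 12 SCD cells, Rag2 was detected in 10 of 21 and 43 of 268 cells, shares whose intervals do not overlap, and without thinning in 15 of 21 and 107 of 280 cells. At 1000 UMIs Vpreb1 was found in 66.7% (43.0 to 85.4) and 60.9% (54.9 to 66.7), and Dntt in 33.3% (14.6 to 57.0) and 34.4% (28.8 to 40.3). For all 10 members the intervals of both libraries overlapped at 1000 UMIs, and at 2000 UMIs they overlapped for the 9 members other than Rag2. How often the intervals of all genes overlap at these depths was not measured, so these counts give no result about the members as a set. In neutrophil-like cells, which should lack these genes, the thinned shares ran from 0% (0 of 4324 cells, which allows 0.0694%) to 0.0925% in wild-type and from 0% (0 of 7181, which allows 0.0418%) to 0.251% in SCD. The median depths before thinning were 2452 and 6956.5 UMIs in neutrophils. The shares in early B cells given above stand far above those in neutrophils. For red pulp macrophages, conventional DCs, monocytes and erythroid-like cells, whose SCD sums of B lineage members were higher (below), no thinned shares are given.

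Other genes of the same pathways were read from lists. Of 12 genes of the pre-B cell receptor and its signalling 11 passed the minimum in early B cells, with 1 higher, 0 lower and a median log2 ratio of -0.31. The 1 higher gene was Vpreb2, the near copy of Vpreb1, at 154 CPM in wild-type and 382 CPM in SCD (log2 ratio 1.28), and the kinase gene Syk was lowest at 404 and 282 CPM. Of 16 B lineage transcription factors all passed and 0 reached a log2 ratio of 1 in either direction, with a median of -0.19. Bach2 was lowest (792 and 473 CPM), followed by Sox4 (898 and 557 CPM) and Foxo1 (207 and 138 CPM), which encodes an activator of Rag gene expression. Ikzf3 (58.5 and 79.1 CPM) and Bcl11a (191 and 250 CPM) were highest. Among 14 end joining and chromatin cofactor genes 4 passed, and 0 reached the limit in either direction. The DNA ligase gene Lig4 was at 95.7 and 73.8 CPM, with an interval of the ratio (0.473 to 1.33) that includes 1. Hmgb1 was highest at 3746 and 4031 CPM. Of 14 genes of IL-7 receptor signalling 5 passed with 0 past the limit, and Pim1 was at 367 and 222 CPM. All 16 cell cycle genes passed with 0 past the limit and a median of -0.19.

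In pDCs, which make type I interferon and are known to carry RNA of some lymphoid genes, only Dntt and Il7r passed the minimum. The class held 769 wild-type (7.91%) and 521 SCD cells (4.39%), and all 12 pDC markers were detected in both. Dntt had 1313 UMIs in wild-type and 839 in SCD pDCs, or 146 CPM (139 to 155) and 177 CPM (165 to 189), a ratio of 1.21 (1.11 to 1.32). Over the alternative settings its log2 ratio in pDCs ranged from 0.07 to 0.58. The ratio of Dntt was below 1 in early B cells, but its interval there included 1 once 1 wild-type cell was left out. The difference between the classes was not tested. Il7r had 2975 and 1645 UMIs, or 332 CPM (320 to 344) and 347 CPM (330 to 364), a ratio of 1.05 (0.983 to 1.11). A UMI of Dntt was found in 515 of 769 and 341 of 521 cells, one of Il7r in 687 and 450, and both in 468 and 304. Thinned to 2000 UMIs, which left out 4 cells of either library, Dntt was in 24.7% (21.7 to 27.9) of wild-type and 28.0% (24.2 to 32.1) of SCD pDCs, and Il7r in 44.8% (41.3 to 48.4) and 49.7% (45.3 to 54.1), and these intervals overlap.

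The remaining members were nearly absent from pDCs. Rag2 had 0 UMIs in both libraries, against 8 and 9 UMIs for Rag1, 1 and 0 for Pax5, and 2 and 8 for Ebf1. Vpreb1 had 20 wild-type UMIs in 19 cells and 10 in SCD, while Igll1 had 0 and 6. The median log2 ratio of the members was 0.23 (all 3487 genes tested 0.009), or 0.23 with members at 0 UMIs set to the limit of 3 counts, and 0 members reached a log2 ratio of 1 in either direction (0.545% of all genes higher, 0.373% lower). A counting interval of the ratio above 1 was found for 3 members, of which Dntt alone passed the minimum, and for 23.1% of all genes, and one below 1 for 0 members and 22.1%. A pDC cluster led by Ly6d held 0.0720% of wild-type and 0.852% of SCD kept cells, with Il7r at 349 and 338 CPM. In the whole class the cell cycle list summed to 162 CPM in wild-type and 452 CPM in SCD. Conventional DC markers summed to 12258 and 7136 CPM (12 of 12 genes detected in each) and neutrophil markers to 3638 and 5410 CPM (13 of 13). The part of these genes in the level of Dntt was not tested.

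No cluster met the rule for the name progenitor. The progenitor markers (Kit, Cd34, Gata2 and others) scored highest in 2 unnamed clusters with 68 wild-type (0.700%) and 303 SCD cells (2.56%), and these stood for progenitors here. Their progenitor markers summed to 1030 CPM in wild-type and 727 CPM in SCD. Erythroid markers stood higher at 3069 and 3837 CPM, and neutrophil markers were at 1017 and 2931 CPM. The name is therefore only a stand-in. Their depth differed, with 12567 UMIs in the median wild-type and 35579 in the median SCD cell. Over both clusters the median log2 ratio of the members was 0.09 (all 3611 genes tested 0.04), or -0.02 with members at 0 UMIs set to the limit of 3 counts. Vpreb3 was the 1 member with a log2 ratio of at least 1 (0.775% of all genes), from 1 and 93 UMIs, a ratio of 11.4 (2.00 to 456), and 0 members were at -1 or below (1.88%). Of the 93 UMIs of Vpreb3 54 were in 1 cell, without which its log2 ratio was 0.48. Without the SCD cell with most UMIs of the gene, Ebf1 was at -1.05 and Rag1 at -1.04. Without the wild-type cell with most UMIs of the gene (21 and 7), Ebf1 was at 0.95 and Rag1 at -0.31. Both values thus depended on which cell was left out. Dntt was at 66.6 CPM (55.0 to 80.0) and 64.9 CPM (60.8 to 69.3), and Il7r at 35.6 CPM (27.3 to 45.8) and 24.1 CPM (21.6 to 26.9). Over the alternative settings the log2 ratio ranged from -2.16 to 1.97 for Dntt and from -2.07 to 0.86 for Il7r, so no direction is given for either in progenitors.

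Dntt and Il7r lay mostly in 1 of these 2 clusters. The cluster led by Car1 and Zfpm1, genes of erythroid development, held 42 wild-type and 193 SCD cells, with 7214 and 69461 UMIs in the median cell. Its erythroid markers summed to 3858 and 4558 CPM, above the 1030 and 722 CPM of its progenitor markers. It held little of any member, at most 3.18 CPM except for Il7r at 10.4 and 0.515 CPM from 14 and 6 UMIs. Il7r was the 1 member at a log2 ratio of at most -1 there (1.97% of all genes). Of these 14 UMIs 9 were in 1 cell, without which the log2 ratio was -0.70. The cluster led by Sox4 and Ly6d held 26 wild-type and 110 SCD cells and 897 of the 904 SCD UMIs of Dntt in the pair. There Dntt was at 309 CPM (255 to 371) and 394 CPM (369 to 421), a ratio of 1.28 (1.05 to 1.56). In wild-type 1 cell held 64 of the 114 UMIs of Dntt, and without it the ratio was 2.75 (2.06 to 3.73). In SCD 1 cell held 107, and without that cell the ratio was 1.14 (0.935 to 1.40), which includes 1. Il7r was at 127 CPM (93.6 to 169) and 145 CPM (130 to 161), a ratio of 1.14 (0.836 to 1.58), or 1.68 (1.16 to 2.54) without the wild-type cell that held 17 of its 47 UMIs. A UMI of Dntt was in 10 of 26 and 57 of 110 cells, and of Il7r in 10 and 62. Dntt was also among the genes that led this cluster, although it was not used to form it.

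Markers of other cells were present in the same cluster, with the 12 pDC markers at a sum of 3852 and 3919 CPM, above the 1027 and 754 CPM of the 12 progenitor markers. Conventional DC markers summed to 2594 CPM in wild-type and 698 CPM in SCD (11 of 12 genes detected in each), and neutrophil markers to 1065 and 3340 CPM (12 and 13 of 13 genes). The cell cycle list summed to 3215 and 5449 CPM, with 6 of 16 genes at a log2 ratio of at least 1 and 0 at -1 or below. The part of these genes in the ratio of Dntt was not tested. The B lineage members there came from very few cells. Ebf1 had 25 wild-type UMIs in 2 cells and 92 SCD UMIs in 8 cells, 1 of which held 67. Vpreb3 had 0 UMIs in 26 wild-type cells and 63 in SCD, all in 4 of 110 cells. Of these UMIs 54 were in 1 SCD cell, and without it 9 UMIs (4.01 CPM) remained. Rag1 had 10 and 8 UMIs (27.1 and 3.51 CPM), a ratio of 0.130 (0.0445 to 0.365), or 0.408 (0.0980 to 2.39) without the 1 wild-type cell that held 7 of them. In this cluster 4 members (Vpreb1, Igll1, Vpreb3 and Cd79a) had a log2 ratio of at least 1 (2.58% of all genes) and 1 (Rag1) of at most -1 (5.39%). Without the SCD cell with most UMIs of the gene, the log2 ratio was -0.44 for Vpreb1, 0.24 for Igll1, 0.85 for Vpreb3 and 0.51 for Cd79a, and without the wild-type cell it was -0.68 for Rag1, so each of these values rests on 1 cell. Cells with a UMI of both Kit and Cd34, taken without clusters, numbered 74 and 156 and held Dntt at 61.3 and 67.5 CPM. Their Il7r was at 66.1 and 12.0 CPM, but 67.6% of these wild-type cells belonged to conventional DC-like clusters.

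**Figure D4:**
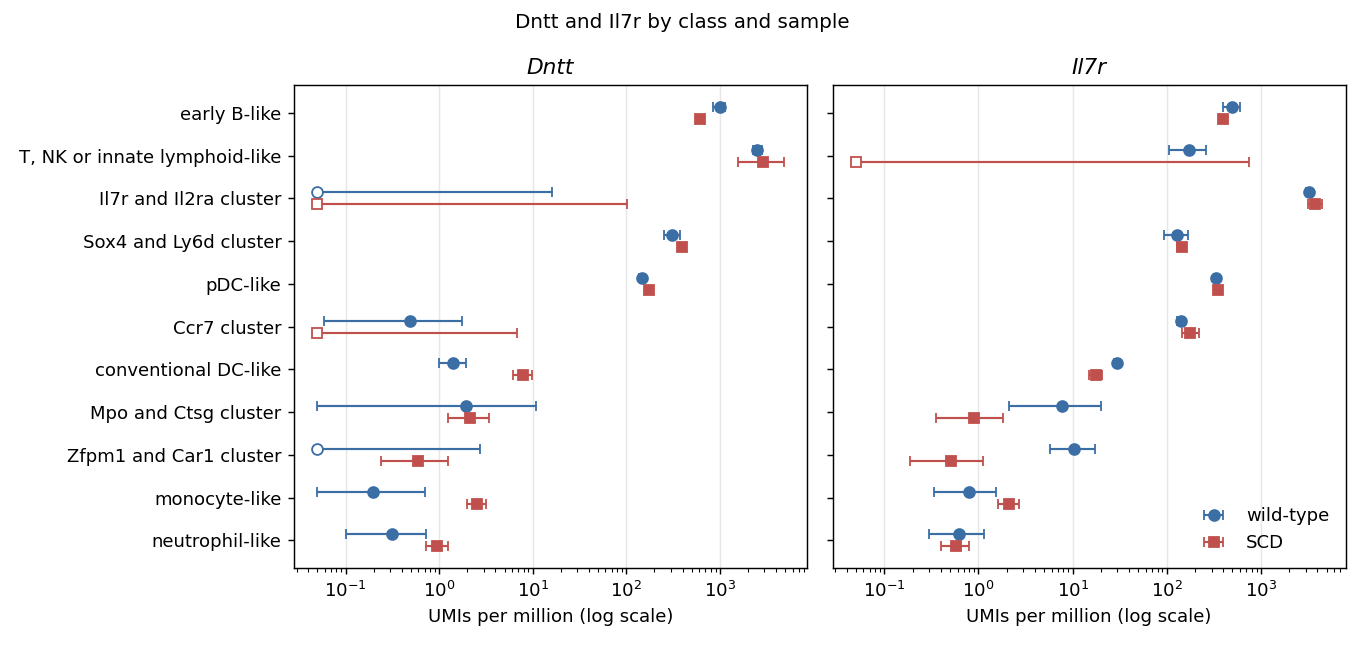
Level of Dntt and Il7r (CPM, log axis) in each cell class or cluster, by genotype, with exact Poisson 95% intervals. Open symbols at the left edge mark 0 UMIs, with the upper limit of the interval. The SCD value of Dntt is lower in early B cells and higher in pDCs and in the Sox4 and Ly6d cluster, but without the cell with most of its UMIs the ratio in early B cells (0.913) and in that cluster (1.14) has an interval that includes 1.

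Outside these classes a few small groups of cells carried single members. A T cell, NK cell or innate lymphoid-like cluster with 17 wild-type cells and 1 SCD cell held 306 wild-type UMIs of Dntt (2513 CPM, 2239 to 2811) and 55 of Rag1 (452 CPM, 340 to 588), which were 15.4% and 38.7% of all kept wild-type UMIs of these genes. Rag2 had 2 UMIs there, and Ebf1, Pax5, Cd79a, Igll1 and Vpreb3 had 0, while the T cell receptor gene Trbc1 was at 3811 CPM. An unnamed cluster with Il2ra and Il18r1, 38 wild-type and 8 SCD cells, held Il7r at 3213 CPM (2985 to 3453) and 3796 CPM (3187 to 4487). Plasma cell-like cells, 15 and 8 in number, held Cd79a at 692 CPM (594 to 801) and 335 CPM (255 to 432) and 0 UMIs of Rag1, Rag2, Dntt, Vpreb1, Igll1 and Il7r. This cluster scored 0.939 on plasma cell and 0.752 on mature B cell markers, and the mature B cell gene Ms4a1 was among its leading genes. Its Cd79a is therefore given for the cluster and not for antibody-secreting cells alone. The rearrangement genes were not detectable in it at this depth.

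B lineage members were found at low levels in several other classes of the SCD library. Vpreb1, Igll1, Vpreb3, Ebf1 and Cd79a summed to 1.05 CPM (0.614 to 1.69) in wild-type and 9.39 CPM (8.64 to 10.2) in SCD neutrophils, against 11595 and 12531 CPM in early B cells. In monocytes the sum was 2.66 and 29.6 CPM, in conventional DCs 2.88 and 32.7 CPM, and in red pulp macrophages 3.02 (0.365 to 10.9) and 217 CPM (177 to 264). In erythroid-like cells it was 0.812 (0.405 to 1.45) and 13.3 CPM (12.2 to 14.6). In pDCs it was 3.46 (2.35 to 4.91) and 8.01 CPM (5.67 to 11.0). Of this sum in the SCD library, Vpreb1 made up 18.9% in monocytes and 17.7% in early B cells, and Ebf1 26.5% and 28.8%. In red pulp macrophages, which had the highest of these sums, the proportions were different, with Vpreb1 at 33.0% (24.1 to 43.0) and Ebf1 at 11.7% (6.17 to 19.5). In red pulp macrophages 6 members reached a log2 ratio of at least 1 (2.55% of all genes) and 1, Il7r, was at -1 or below (4.97%), from 20 and 4 UMIs. In monocytes 2 members were at 1 or above (4.26%) and 0 at -1 or below (6.92%). Free RNA in droplets can give UMIs of this kind in cells that do not express a gene. Its part was not tested, and these low values are not given as levels of those classes.

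**Figure D5:**
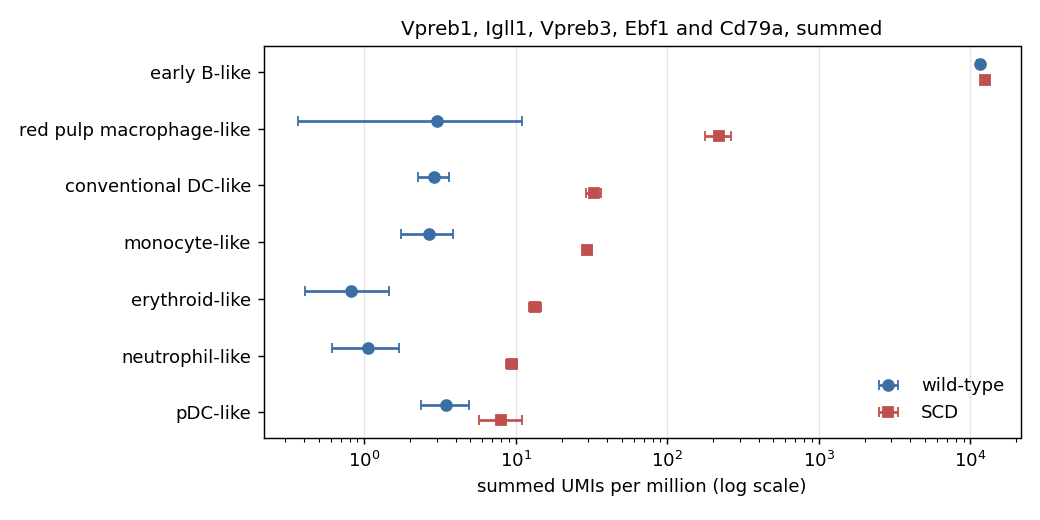
Summed level of Vpreb1, Igll1, Vpreb3, Ebf1 and Cd79a (CPM, log axis) by cell class and genotype, with exact Poisson 95% intervals. The other classes plotted lie far below early B cells. The SCD value exceeds the wild-type value in red pulp macrophages, conventional DCs, monocytes, erythroid-like cells, neutrophils and pDCs.

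The genes most alike to each member were read from 18 sums (9 named classes in 2 libraries, which share depth and cell mix within a library, and of which the SCD T cell-like sum is 1 cell) by Pearson's r of log2 levels across these sums. Vpreb1 was most like Igll1 (r = 0.99), Vpreb2 and Smtnl2, and Vpreb3 most like Ebf1 (r = 0.98), Grb7 and Igll1. The genes closest to Ebf1 included Vpreb3 and Pax5, those closest to Pax5 included Pear1 and Cpm, and those closest to Cd79a included Pou2af1 and Myl4. Rag1 was most like Slc5a9 (r = 0.98), Ddc and Ankrd6, and Rag2 most like Smim41 (r = 0.99), Uchl1 and Gm42449. For Dntt these genes were Ppm1e, Gm37534 and Kansl1l, and for Il7r Msh5, N4bp3 and Slc30a4. The neighbours Rag1 and Rag2 were not among each other's closest genes, whereas Vpreb1 and Igll1 were.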

How the data were processed

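The cells were profiled with the 10x Genomics 3′ v3.1 chemistry, both samples on the same chip. Per the labels and the study's methods, the authors aligned reads, called cells and counted UMIs with Cell Ranger 4.0.0 (build GRCm38.p6), and the deposited values are raw counts per gene and cell, without normalization and without the study's cell filters. Cells called at the capture step started at 500 UMIs. The submitters' processing notes also list Seurat 3.2.3, Scanpy 1.6.0 and R 4.4.

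Kept cells had at least 500 genes, and mitochondrial and ribosomal counts made up less than 15% and 30% of their UMIs. An upper limit of 5000 genes was not applied, since 295 wild-type and 1220 SCD kept cells exceed it. Counts were scaled with scran 1.30.0 (R 4.3.3, minimum group size 100), log-transformed, reduced to 30 components on 2000 variable genes without the 10 members, and clustered with the Leiden algorithm (resolution 1, 15 neighbours, Python 3.11.15 with igraph 0.11.9, leidenalg 0.10.2, matplotlib 3.10.9, pandas 2.3.3, numpy 2.4.6, scanpy 1.11.5, scikit-image 0.26.0, scikit-learn 1.9.0 and scipy 1.17.1). Cells outside the 5 most abundant classes were clustered again together. A cluster was named when 3 or more markers were detected, when the 10 leading genes held at least as many of its own markers as of any other class, and when its score (mean of the 8 best markers) was 0.05 above the next class. Scrublet called 387 wild-type (3.98%) and 308 SCD (2.60%) cells as doublets, and these were kept.

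UMIs were summed per sample and class and given as CPM. Genes counted as tested had at least 50 CPM and 20 UMIs in 1 library. Each group was 1 sample from the labels, so no test was run, and p-values were not computed. The summing and intervals were tested on simulated data. All 10 members were described in each class, list genes were named as up to 3 highest and 3 lowest log2 ratios in early B cells, and for likeness the 3 highest correlations were named with immunoglobulin variable genes left out. One gene among these is not reported here. The members and lists were chosen with earlier results of these data known. The second clustering round, the scoring rule, its margin and the added alternatives were set after the clusters had been seen. Classes were rebuilt here and are not the study's annotation. Promoter windows came from RefSeq and gene positions from GENCODE. Alternatives covered filters, clustering, scaling, pseudocount, minimum level and thinning. Leaving out the cell with most UMIs of a member was added after the values had been seen.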

Additional observations from a re-analysis of the deposited data

Results flagged for a closer look

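A signal of the members was present in cells that the filters had removed and that the main comparisons do not use. Those with at least 500 genes enter only the alternative setting with no mitochondrial or ribosomal filter. The 1592 removed SCD cells held 3744 UMIs of the 10 members, 213 CPM (206 to 220), and the 1127 removed wild-type cells 321 UMIs, 17.5 CPM (15.6 to 19.5). Of these, 3188 SCD UMIs (85.1%) and 189 wild-type UMIs (58.9%) were in the 694 SCD and 544 wild-type cells removed only because at least 30% of their counts were ribosomal. With no mitochondrial or ribosomal filter the early B cell-like class grew from 280 to 291 SCD cells and stayed at 21 wild-type cells.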

How the results depend on the processing

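No paired analysis was possible because there was 1 mouse of either genotype. Alternatives gave a ratio of early B cell-like shares of 4.47 to 17.5, and the one outside the counting interval was 4.47, with each cell classed by its own markers (59 and 322 cells). The median member log2 ratio in early B cells was -0.63 with each sample clustered on its own and 0.22 with each cell classed by its markers, and within the interval in the other 11 alternatives. In pDCs it ranged from 0.07 to 0.70. In progenitor clusters it ranged up to 0.81 and was -1.23 with each sample clustered on its own, where Vpreb3 turned to -0.96. The cause was not tested. The progenitor class held 28 to 186 wild-type and 23 to 398 SCD cells over the settings, so its values are the least firm. The share of all genes with a log2 ratio of at least 1 in early B cells was 7.89% without the 50 CPM minimum and 7.27% with no minimum, and at most -1 it was 3.42% and 5.36%. In pDCs the higher share was 0.897% without the 50 CPM minimum, and in progenitor clusters the higher share was 0.427% with no minimum and the lower share 2.89% without the 50 CPM minimum, where more low genes enter. The median share of early B cells with a member UMI was 47.8% in SCD after thinning to 1000 UMIs, 63.8% at 2000 UMIs and 73.8% without thinning. In wild-type it was 59.5% at 2000 UMIs, below the SCD share, and 78.6% without thinning, above it. Precision is set by 21 wild-type early B cells.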

Other observations

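Outside early B cells the neighbouring genes did not keep the proportion they had there in the wild-type library. Vpreb1 made up 95.4% (87.1 to 99.0) of the pair with Igll1 in all other kept wild-type cells (62 and 3 UMIs), against 61.4% in early B cells, while in the SCD library it made up 59.4% (56.8 to 62.1; 796 and 543 UMIs), against 63.3%. Rag1 made up 94.2% (87.0 to 98.1) of the pair with Rag2 in the other wild-type cells (81 and 5 UMIs), of which 55 Rag1 UMIs were in the T cell-like cluster, and 71.1% (62.4 to 78.8) in the other SCD cells (91 and 37 UMIs).

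An unnamed cluster of 5 wild-type and 41 SCD cells was led by Vpreb3, Ebf1, Cd79a, Vpreb1 and Igll1, of which the SCD cells held 1740 UMIs and the wild-type cells 0. It also held S100a8 at 81451 CPM in wild-type and 95351 CPM in SCD. It was left out of the early B cells, and with all of its cells added the ratio of shares was 10.1.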
